A study of Homo sapiens with 6 samples.

Results

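Actinins, filamins, calponins and transgelins are proteins that bind actin filaments, and 9 of their genes are described here out of 18365 genes on the array. They are the actinins ACTN1 and ACTN4, the filamins FLNA and FLNC, the calponins CNN1, CNN2 and CNN3, and the transgelins TAGLN and TAGLN2. A gene was taken as measured where a probe carried its symbol and no other in the platform annotation. Where a gene had several such probes, the brightest over all 6 arrays stood for it. All 9 genes were found, on 12 probes, and no filter on low values removed any of them. RNA came from LX2, an established human cell line of the hepatic stellate type. Stellate cells lay down scar collagen in the liver once activated. In 3 samples the cells had been given Syy and 3 samples were controls. Syy is a code name for a small compound that the submitters describe as inhibiting what these cells release, and its dose and duration, and what the control cells received, are not given in the sources. Each sample was hybridized to a one-channel Phalanx array. The comparison asks how transcript levels differ between cells with and without Syy.

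Actinins are rod-shaped dimers that hold parallel actin filaments together and anchor them at focal adhesions. Filamins are long, flexible dimers that join crossing filaments into a gel and tie it to membrane receptors. Calponins and transgelins are small proteins with a related actin-binding domain. CNN1 and TAGLN are classical markers of smooth muscle, and TAGLN is also used as a mark of myofibroblasts, the contractile cells that activated stellate cells become. Several genes of this kind are known targets of the transcription factor SRF, which binds a DNA motif called the CArG box.

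The 250 bases before the annotated start sites, as given by RefSeq for GRCh38.p14, are shown for members that rose, because they differ in whether they hold a CArG box. Windows were matched by symbol for 8 members, in 15 windows, since ACTN1, ACTN4, CNN3 and TAGLN2 have several starts; TAGLN was not among them. Capitals mark the CArG box in the windows of FLNA, on the minus strand at chrX:154374635-154374884, of CNN2, on the plus strand at chr19:1026358-1026607, and in 30 bases before an alternative start of ACTN1, on the minus strand at chr14:68977718-68977747. In the window of FLNC, on the plus strand at chr7:128830156-128830405, no CArG box was found. Capitals there mark CATTCC, the reverse complement of the motif GGAATG known for TEAD factors. CATTCC is not particular to FLNC. It also lay 154 bases before the same alternative start of ACTN1, where the printed stretch ends within it, unmarked. In CNN3, which did not pass the test, it lay 142 bases before an alternative start. All printed sequences are written 5′ to 3′ in the direction of the gene.
FLNA: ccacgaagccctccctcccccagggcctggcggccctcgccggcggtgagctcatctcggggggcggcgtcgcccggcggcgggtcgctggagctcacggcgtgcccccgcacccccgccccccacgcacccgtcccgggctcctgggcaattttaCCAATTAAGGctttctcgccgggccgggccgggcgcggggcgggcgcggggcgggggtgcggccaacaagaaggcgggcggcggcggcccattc
CNN2: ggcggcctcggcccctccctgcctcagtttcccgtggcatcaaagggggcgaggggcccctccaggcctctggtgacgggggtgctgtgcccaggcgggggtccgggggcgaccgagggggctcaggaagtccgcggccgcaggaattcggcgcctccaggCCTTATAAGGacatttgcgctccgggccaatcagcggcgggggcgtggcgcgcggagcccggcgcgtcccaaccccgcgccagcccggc
ACTN1: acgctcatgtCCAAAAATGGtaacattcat
FLNC: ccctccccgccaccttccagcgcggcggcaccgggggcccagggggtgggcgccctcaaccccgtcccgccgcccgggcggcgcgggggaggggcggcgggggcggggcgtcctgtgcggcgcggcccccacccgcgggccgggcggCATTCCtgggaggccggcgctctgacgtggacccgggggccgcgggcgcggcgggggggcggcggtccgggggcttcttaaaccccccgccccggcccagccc

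The box of FLNA began 94 bases before the start and that of CNN2 89 bases before it. The box of ACTN1 lay 171 bases before the third of 4 annotated starts, and the other 3 ACTN1 windows held none. No CArG box was found in the windows of ACTN4, FLNC, CNN1, CNN3 or TAGLN2. TAGLN had no window and was not searched. Whether the box goes with the changes of the members was not tested. Among all 35116 windows in the RefSeq table, searched on both strands, 1.16% held a CArG box, and 1.44% of 27305 symbols had it in at least 1 window. The other 5 motifs searched were GGGCGG, present in windows of 7 of the 8 members and of 46.2% of all symbols, CCAAT in 5 members and 37.0%, TATAAA in 1 member and 13.0%, GGAATG in 3 members and 14.3%, and CAGACA in 2 members and 16.3%, each counted once for a symbol with the motif in any of its windows. CCAAT overlaps the box of FLNA. The motifs were searched with the changes of the members known, and a match describes letters in a window and not a bound site.

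Values are given as log2(intensity + 16) after quantile normalization over the 6 arrays, so that a difference of 1 is close to a 2-fold change for bright probes and understates it for dim ones. A gene is said to have risen or fallen where limma gave an adjusted p below 0.05 over all 18365 genes. By this rule 11.0% of all genes were higher with Syy and 11.5% lower. Of the calls 48.9% were higher, against 60.0% after median centring and 81.0% on the deposited scale. The member probes were bright. Among the 4316 genes at least as bright as the dimmest member, 20.1% were higher and 19.0% lower. The array of Syy replicate 3 stands apart: 10 of 14 hepatocyte markers measured lay more than 1 log2 unit above every other array there. The summed normalized intensity of these markers was 28829 on that array and 416 to 821 on the remaining 5. KRT19, a cholangiocyte marker, read 8.72 on that array and at most 7.35 on the others. For CKM, a muscle marker, the values were 5.33 and at most 4.36. Changes of the members without that array are given beside the results. The markers of muscle cells, which also use several of these genes, summed to 127 to 161 on the Syy arrays and 156 to 158 on the controls, and none of the 5 was called. Only 1 of these 5, MYOG, lay above the median of all probes. Among markers of other cell types 2 were called. Of 4 macrophage markers CD14 rose by 0.72 (adjusted p = 0.00661) and CD68, CD163 and LYZ did not pass, CD163 and LYZ lying below the median of all probes. The macrophage markers' sum was 2662 to 3125 on the Syy arrays and 1785 to 2031 on the controls. Of the hepatocyte markers SERPINA1 was called higher, at 5.96, 6.72 and 7.67 with Syy and 5.19 on each control (1.59, adjusted p = 0.0436), while its second probe gave -0.35 and did not pass. None of 4 endothelial or 3 cholangiocyte markers was called. The part of CD14 and SERPINA1 or their cells in the members' results was not tested. Of 8 stellate cell markers 4 rose, among them COL1A1 and VIM. The call of VIM was lost after median centring (adjusted p = 0.0765, from 0.00348 to 0.0765 among its alternatives). That of COL1A1 was lost without Syy replicate 3 and control replicate 2 (adjusted p = 0.0617, from 0.00258 to 0.0617). COL1A2 and DES, a marker of such cells in rodents, were not above the median of all probes and were not called. COL1A2 read 0.46 higher (adjusted p = 0.0851). Nothing in the labels says that the samples are separate cultures, so the p-values reflect only how these samples spread, and that spread could be technical.

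With Syy, ACTN1, FLNA, FLNC and CNN2 rose by 1.45-fold to 1.85-fold, none of the 9 members fell and 5 did not pass the test. Of all genes 11.0% rose and 11.5% fell, and of those at least as bright as the dimmest member 20.1% rose and 19.0% fell. The 3 Syy values lay above all 3 control values for 5 members, the 4 that rose and TAGLN2, and the same was true of 18.9% of all genes. It was also true of 1278 of the 4316 genes at least as bright as the dimmest member. The median log2 change of the 9 was 0.30, against -0.01 among the genes at least as bright as the dimmest of them. CNN1 and TAGLN, the smooth muscle markers of the group, read within 0.01 of the controls. In RNA of a whole culture, a change in the share of cells of some kind and a change of RNA per cell cannot be told apart.

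**Figure D1:**
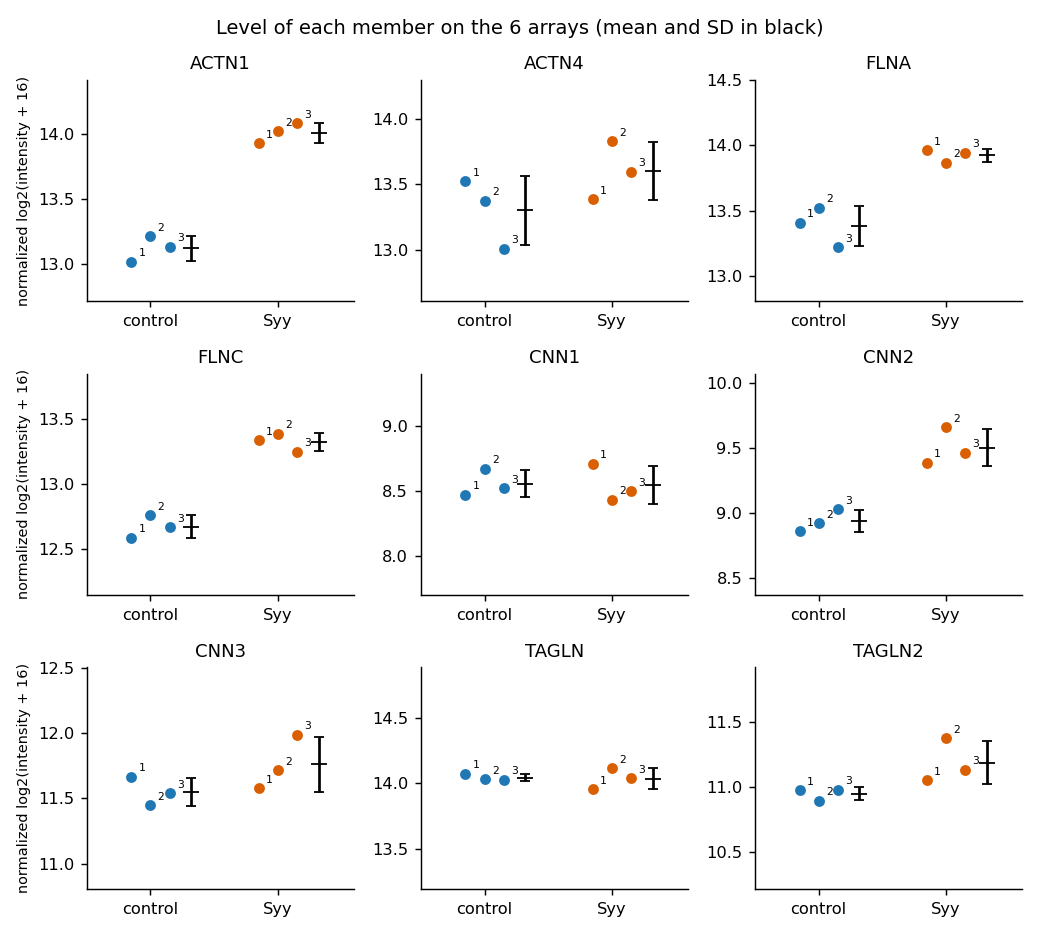
Normalized log2(intensity + 16) of the 9 members on each array, with the replicate number beside each point and the mean and SD (n = 3) in black; every panel spans the same number of log2 units. The groups are separate for ACTN1, FLNA, FLNC and CNN2, narrowly so for TAGLN2, and overlap for ACTN4, CNN1, CNN3 and TAGLN.

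ACTN1 (chromosome 14, 68874128 to 68979302 in GRCh38.p14) encodes the actinin of stress fibres and focal adhesions. It read 13.93, 14.02 and 14.08 in Syy replicates 1 to 3 and 13.02, 13.21 and 13.14 in control replicates 1 to 3, the order used for all members. All Syy values lay above all control values, with a gap of 0.71 between the nearest of them, the widest gap of the 9 members. ACTN1 was 1.85-fold higher, with a log2 change of 0.89 ± 0.07 (SE, n = 3 each; limma adjusted p = 0.00238). Its deposited intensity was 16085 to 16821 with Syy and 8285 to 9304 in controls. A second, dim probe of ACTN1 moved further: its deposited intensities were 165.8, 216.7 and 151.0 with Syy and 40.1, 48.7 and 39.5 in controls. On that probe the log2 change was 1.48 ± 0.13 (SE; limma adjusted p = 0.00356 over all 31741 probes, of which 8.99% were higher). The probes therefore gave the same direction and different sizes, 1.85-fold and 2.80-fold on the normalized log2 scale. That scale understates changes of dim probes. In the deposited intensities above, the second probe rose by more than 2.80-fold, so the probes differ further there. Which part of the transcript each probe reads was not examined here. Without Syy replicate 3 the change of the brighter probe was 0.85 (adjusted p = 0.00875).

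ACTN4 (chromosome 19, 38647649 to 38731589) encodes the other actinin of cells outside muscle, known for its place at the moving edge of cells and in the kidney filter. Its brighter probe read 13.39, 13.83 and 13.60 with Syy and 13.52, 13.37 and 13.01 in controls. The groups overlapped, with control replicate 3 lowest and Syy replicate 2 highest. The change of 0.30 ± 0.17 (SE) did not pass (adjusted p = 0.279), and its 95% confidence interval ran from -0.12 to 0.73, so a rise of the size seen for FLNA is within it. Single arrays moved the change of ACTN4: it was 0.15 without control replicate 3, 0.19 without Syy replicate 2 and 0.31 without Syy replicate 3, and 0.19 after median centring, and passed in none of these. The second probe of ACTN4 gave 0.36 ± 0.15 (SE; adjusted p = 0.177 over all probes). On that probe the lowest Syy value, 12.43, lay just above the highest control value, 12.39. Transcripts of ACTN1 and ACTN4 are similar in sequence, and cross-reading between their probes was not tested.

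Both filamins rose. FLNA (chromosome X, 154348531 to 154374634) encodes the widespread filamin, and read 13.96, 13.87 and 13.94 with Syy and 13.41, 13.52 and 13.22 in controls. The Syy values lay close together, with an SD of 0.05 against 0.15 among controls, and the groups did not overlap. FLNA was 1.45-fold higher, by 0.54 ± 0.09 (SE; limma adjusted p = 0.011), and by 0.53 without Syy replicate 3 (adjusted p = 0.0314). The call of FLNA was lost without Syy replicate 3 and control replicate 2 together, with a change of 0.60 and an adjusted p of 0.0616, and with the replicate number as a block, with an adjusted p of 0.0549. FLNC (chromosome 7, 128830406 to 128859272) encodes the filamin that is abundant in skeletal and heart muscle. It read 13.34, 13.39 and 13.25 with Syy and 12.59, 12.76 and 12.67 in controls. Again the groups were separate, with a gap of 0.49. FLNC was 1.57-fold higher, by 0.65 ± 0.07 (SE; limma adjusted p = 0.00355), and by 0.69 without Syy replicate 3 (adjusted p = 0.00961). Deposited intensities of FLNC were 9363 to 10883 with Syy and 6186 to 6826 in controls. Each filamin was read by a single probe.

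Among the calponins CNN2 rose, and the changes of CNN1 and CNN3 did not pass the test. CNN2 (chromosome 19, 1026608 to 1039065) encodes the calponin found in many cell types beyond smooth muscle. It read 9.38, 9.66 and 9.46 with Syy and 8.86, 8.92 and 9.03 in controls, with a gap of 0.35 between the groups. CNN2 was 1.48-fold higher, by 0.56 ± 0.09 (SE; limma adjusted p = 0.0103). The size of the CNN2 change depended on the scaling. It was 0.71 after median centring and 0.84 on the deposited scale, and passed in both. Its deposited intensity was 712.5 to 905.6 with Syy and 421.1 to 435.0 in controls. Without Syy replicate 3 the change was 0.58 (adjusted p = 0.0272), and without that array and control replicate 2 it was 0.57 and no longer passed (adjusted p = 0.103).

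CNN1 (chromosome 19, 11538851 to 11550323) encodes the calponin of smooth muscle. Its values were 8.71, 8.43 and 8.50 with Syy and 8.47, 8.67 and 8.52 in controls. They overlapped fully, and the change was -0.01 ± 0.09 (SE; adjusted p = 0.978), with a 95% confidence interval of -0.24 to 0.23. The direction of CNN1 depended on the scaling: it read 0.16 after median centring (adjusted p = 0.281) and 0.29 on the deposited scale (adjusted p = 0.0964), and passed in neither. Without 1 array CNN1 ran from -0.09 to 0.05, at 0.01 without Syy replicate 3. In deposited intensity CNN1 was 377.0 to 434.2 with Syy and 289.7 to 357.9 in controls. CNN3 (chromosome 1, 94896957 to 94927110) encodes the acidic calponin, known in brain as well as in fibroblasts. Its brighter probe read 11.58, 11.72 and 11.99 with Syy and 11.67, 11.45 and 11.54 in controls, and the groups overlapped. The change of CNN3 was 0.21 ± 0.12 (SE; adjusted p = 0.286), and 0.10 without Syy replicate 3. In the values as deposited CNN3 read 0.33 and did not pass (adjusted p = 0.0795). The second probe of CNN3 varied more, at 10.31, 9.34 and 10.63 with Syy and 10.04, 10.09 and 9.77 in controls. Syy replicate 2 was the lowest array on that probe and not on the brighter one, and the change was 0.12 ± 0.34 (SE; adjusted p = 0.845 over all probes).

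The transgelins did not pass the test. TAGLN (chromosome 11, 117199294 to 117207465) encodes the smooth muscle protein also called SM22, one of the usual marks of activated stellate cells. It read 13.95, 14.12 and 14.04 with Syy and 14.07, 14.03 and 14.03 in controls. The change was -0.01 ± 0.06 (SE; adjusted p = 0.952), with a 95% confidence interval of -0.15 to 0.13, which leaves out a rise of the size seen for ACTN1, FLNA, FLNC or CNN2. TAGLN read -0.14 after median centring and -0.01 on the deposited scale, without passing. Without 1 array it ran from -0.05 to 0.03, at -0.01 without Syy replicate 3. Its deposited intensity was 15997 to 17887 with Syy and 16481 to 17548 in controls, below the highest value on the arrays, 71046. TAGLN2 (chromosome 1, 159918111 to 159925507) encodes the transgelin of cells outside smooth muscle. It read 11.05, 11.37 and 11.13 with Syy and 10.97, 10.89 and 10.98 in controls. The groups did not overlap, by a gap of 0.07, but the change of 0.24 ± 0.09 (SE) did not pass (adjusted p = 0.133). In the values as deposited TAGLN2 read 0.41 with an adjusted p of 0.0525. Without Syy replicate 2 it read 0.14 (adjusted p = 0.188) and without Syy replicate 3 0.26.

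**Figure D2:**
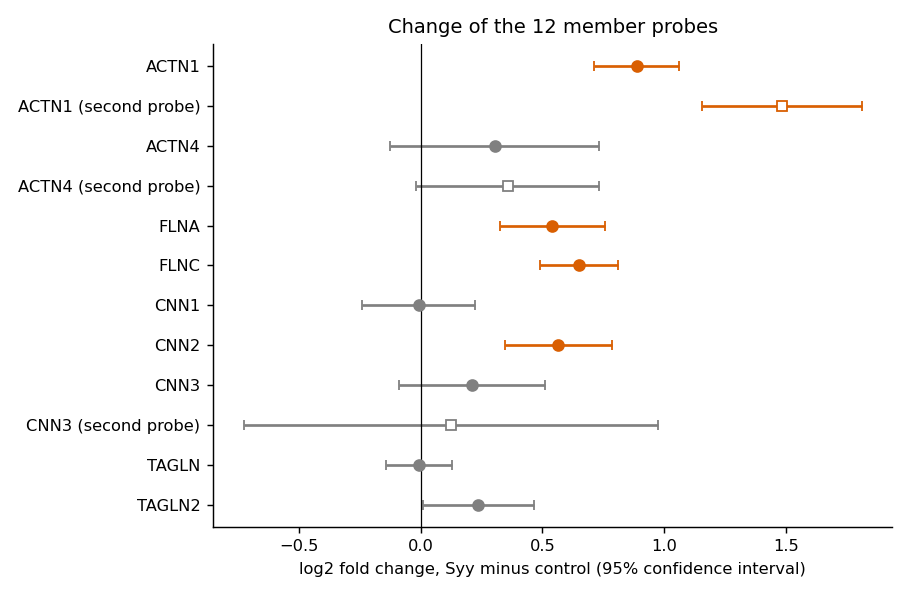
Log2 fold change of the 12 member probes, Syy minus control, with 95% confidence intervals from the fit over all probes; circles are the brightest probe of a gene, open squares a second probe, and orange marks probes with an adjusted p below 0.05. The second ACTN1 probe, at 1.48, moved most, and the interval of the second CNN3 probe is the widest.

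Members of a family were then set against each other within each array. A factor common to an array cancels in such a difference, but quantile normalization does not. The log2 value of the second gene was subtracted from that of the first for 6 pairs. The difference of ACTN1 and ACTN4 was 0.54, 0.19 and 0.48 with Syy and -0.51, -0.16 and 0.13 in controls. ACTN1 thus read 0.58 ± 0.21 (SE) higher relative to ACTN4 with Syy, with no overlap between the groups. The difference of CNN1 and CNN2 was -0.68, -1.23 and -0.96 with Syy and -0.39, -0.25 and -0.51 in controls, a shift of -0.57 ± 0.18 (SE) against CNN1, again with no overlap. TAGLN shifted by -0.24 ± 0.06 (SE) against TAGLN2: the difference was 2.90, 2.75 and 2.91 with Syy and 3.10, 3.14 and 3.05 in controls. That shift depended on the scaling and was -0.42 both on the deposited scale and with median centring. FLNA and FLNC differed by 0.48 to 0.69 with Syy and 0.55 to 0.82 in controls, and the shift of -0.11 ± 0.10 (SE) was within the overlap; without 1 array it ran from -0.18 to -0.05. CNN2 against CNN3 shifted by 0.35 ± 0.17 (SE) and CNN1 against CNN3 by -0.22 ± 0.22 (SE), both with overlap. The overlap of CNN2 against CNN3 depended on the scaling. Its shift was 0.51 both on the deposited scale and with median centring, and there its groups did not overlap. The shift of CNN1 against CNN3 was -0.04 on both of those scales, and -0.39 to -0.08 without 1 array. With 3 arrays against 3 an exact two-sided permutation test over samples cannot give a p below 0.10. The pairs of ACTN1 with ACTN4, CNN1 with CNN2 and TAGLN with TAGLN2 reached that floor (exact p = 0.10, and 0.20 after Benjamini-Hochberg adjustment over the 6 pairs). For FLNA with FLNC the exact p was 0.40, for CNN1 with CNN3 0.40 and for CNN2 with CNN3 0.30, each 0.40 after adjustment. None of the 6 pairs can therefore be called unequal by this test.

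**Figure D3:**
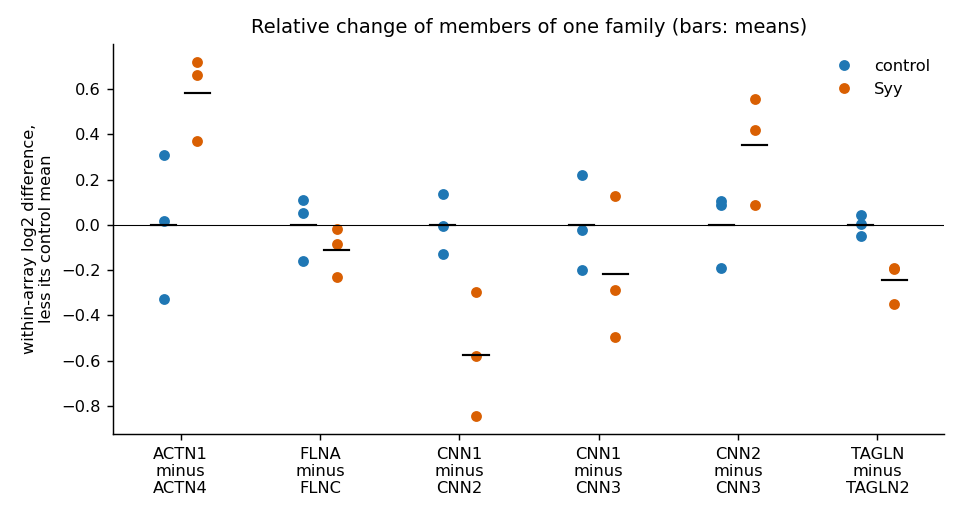
Within-array log2 difference between 2 members of a family, less its mean over the control arrays, for the 3 control (blue) and 3 Syy (orange) arrays, with bars at the means. The groups are apart for ACTN1 minus ACTN4, CNN1 minus CNN2 and TAGLN minus TAGLN2 and overlap for the other 3 pairs.

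The genes with the most similar pattern were sought for each member among the other 10912 genes whose probe lay above the median of all probes. Likeness was the root mean square difference of the gene-centred log2 values over the 6 arrays. For ACTN1 the nearest were MCM3 (0.04 log2 units), PDIA4 (0.05) and MAML1 (0.05). Nearest to FLNA were TG, PRRC2B and TATDN2, at 0.03 to 0.04. The nearest genes of FLNC were RUNX3, PPAP2B and PFKP, at 0.01 to 0.03, and those of CNN2 were SEZ6L2, GABRA3 and TMEM132A, at 0.02 to 0.04. For TAGLN they were FEN1, LIPA and PEA15, and for CNN1 they were COG4, TRIM27 and AQP11, all at 0.02 to 0.03. Other members were farther away than these genes. FLNC, the member nearest to ACTN1, stood 0.14 from it and was preceded by 262 genes. CNN2, the member nearest to FLNC, stood 0.10 from it and was preceded by 355. The nearest member ranked 2223 for CNN1 and 2320 for TAGLN. Few of the 10912 genes are members, so these ranks do not show whether members are alike. The likeness rests on 6 arrays in 2 groups.

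Other actin-binding genes were read from 6 lists by role, chosen with earlier results of these data known. Of 76 listed genes 75 were measured; TWF1 is not analysed here. Of the 75, 16 rose, 8 fell and 51 did not pass, with a median log2 change of 0.06. Most were bright: 63 lay above the median of all probes, and of these 15 rose and 8 fell. Among all 10913 genes above that median 16.9% rose and 16.9% fell. Of the 75, 6 were higher and 5 lower when Syy replicate 3 and control replicate 2 were both left out. Some genes that did not pass had a dimmer probe that was called over all probes. Such a probe was higher for SPTBN1 (0.95), GSN (1.03) and CALD1 (0.43), and lower for CFL2 (-0.72) and PDLIM5 (-0.40). That of CALD1 lay below the median of all probes.

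**Figure D4:**
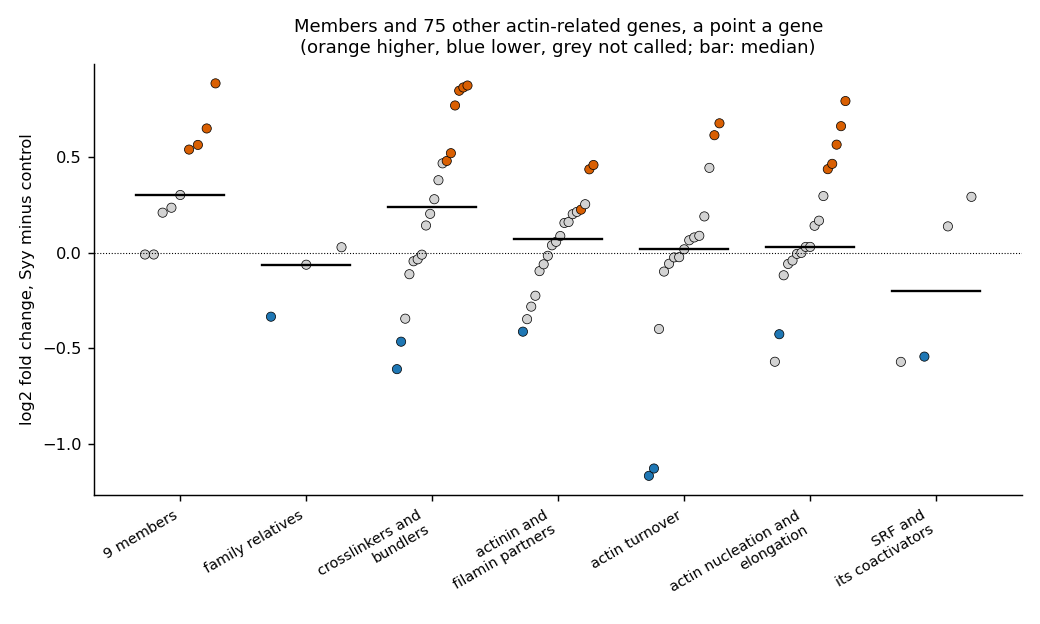
Log2 fold change, Syy minus control, of the 9 members and of the 75 measured genes of 6 lists, a point a gene, with the median of each list as a bar; orange points rose, blue points fell and grey points did not pass. The crosslinkers and bundlers have a median of 0.24, and the lowest points are CAPZA2 and CAPZA1 among the genes of actin turnover.

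Of 18 other crosslinking and bundling proteins 6 rose and 2 fell (33.3% and 11.1%), with a median of 0.24. Of all genes 11.0% rose and 11.5% fell, and of those above the median of all probes 16.9% rose and 16.9% fell. SYNPO, which encodes synaptopodin, a partner of actinin, rose by 0.88 ± 0.07 (SE; adjusted p = 0.00236), but its second probe gave 0.18 and did not pass (adjusted p = 0.311 over all probes). MARCKS, a membrane protein that binds actin, rose by 0.87 ± 0.22 (SE; adjusted p = 0.0418), with 0.23 on its second probe (adjusted p = 0.309), and SPTAN1, an alpha spectrin, by 0.85 ± 0.19 (SE; adjusted p = 0.0269). ANLN, the anillin of the dividing cell's contractile ring, fell by 0.61, and PLS3, a plastin that bundles filaments, by 0.46 (adjusted p = 0.0339 and 0.0378). Of 18 partners of actinins and filamins 3 rose and 1 fell (16.7% and 5.6%), so the share that rose was near that of genes above the median. FHL2, a LIM protein, rose by 0.46, and FBLIM1, or migfilin, which binds filamin, by 0.44 (adjusted p = 0.0149 and 0.012). The other FBLIM1 probes gave 0.97, which was called, and -0.19, which was not (adjusted p = 0.00906 and 0.473 over all probes). ASB2, which directs filamins to degradation, read 4.59 ± 0.06 with Syy and 4.36 ± 0.03 in controls (SD, n = 3), below the median of all probes, and its change of 0.23 passed (adjusted p = 0.0292). LDB3, a PDZ and LIM protein of muscle, fell by 0.41 (adjusted p = 0.00703), and its other 2 probes lay below the median of all probes and were not called.

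Among 15 genes of actin turnover 2 rose and 2 fell, 13.3% each. These shares are near those of all genes, 11.0% and 11.5%. WDR1, which helps cofilin take filaments apart, rose by 0.68 ± 0.06 (SE; adjusted p = 0.00288). The subunits of the capping protein, which closes the growing end of filaments, went different ways: CAPZB, the beta subunit, rose by 0.62 ± 0.14 (SE; adjusted p = 0.0314), with 0.77 on its second probe (adjusted p = 0.0251 over all probes). The alpha subunits CAPZA2 and CAPZA1 fell by 1.17 ± 0.25 and 1.13 ± 0.13 (SE; adjusted p = 0.0237 and 0.00441). Of 17 genes of filament nucleation and elongation 5 rose and 1 fell (29.4% and 5.9%). ARPC1A and ARPC5, subunits of the Arp2/3 complex that starts branched filaments, rose by 0.79 and 0.57 (adjusted p = 0.00226 and 0.00875), and the second probe of ARPC5 gave 0.88. CTTN, or cortactin, which steadies those branches, rose by 0.66 (adjusted p = 0.00238). CORO1B, a coronin, fell by 0.43 (adjusted p = 0.00624), while its second probe gave 0.10 and did not pass (adjusted p = 0.869).

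Of the relatives of the members, ACTN2 and ACTN3, the actinins of striated muscle, read 4.14 and 4.69 with Syy and 4.20 and 4.67 in controls. Both lay below the median of all probes and did not pass. TAGLN3, the transgelin of neurons, read 5.80 ± 0.07 with Syy and 6.14 ± 0.13 in controls (SD, n = 3) and fell by 0.33 (adjusted p = 0.0357). SRF itself read 9.76 with Syy and 9.47 in controls, with no overlap, and its change of 0.29 ± 0.09 (SE) did not pass (adjusted p = 0.0636). It passed after median centring (0.43, adjusted p = 0.0261) and on the deposited scale (0.56, adjusted p = 0.0103), and over its 15 alternatives the adjusted p ran from 0.0103 to 0.204. Of its coactivators, MKL1 read 0.14 higher and did not pass (adjusted p = 0.426; 0.05 without Syy replicate 2 and 0.23 without Syy replicate 3), and MKL2 fell by 0.54 (adjusted p = 0.0212), with a second probe below the median of all probes at 0.06. MYOCD, the coactivator of smooth and heart muscle, read -0.57 and did not pass (adjusted p = 0.116). The MYOCD change was -0.34 without control replicate 1 and -0.14 for the mean of its probes, and its other 2 probes, both below the median of all probes, gave 0.13 and 0.01.

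Calls of these other genes were also followed over the alternatives. Those of SYNPO, CAPZA1, ARPC1A and CTTN held under all 15 other settings. The call of TAGLN3 was lost under 11 of 15, of ASB2 under 10 of 14, of PLS3 under 9 of 15, of MARCKS and ANLN under 8 each, and of MKL2, SPTAN1, CAPZB and CAPZA2 under 6 each, mostly where an array was left out. FHL2, FBLIM1, LDB3, WDR1, ARPC5 and CORO1B lost theirs under 1 to 3, and COL1A1 and VIM under 1 each. Several falls also depended on the normalization. In the values as deposited CORO1B read -0.14, PLS3 -0.18, TAGLN3 -0.14, LDB3 -0.21, ANLN -0.33 and MKL2 -0.31, and none of these 6 passed. CAPZA1 and CAPZA2 still passed there. No named gene that passed in either setting changed its sign.

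The calls of ACTN1 and FLNC held under all 15 other settings tried, with log2 changes of 0.79 to 1.19 and 0.56 to 0.73. CNN2 kept its call under 14 of them and FLNA under 13. ACTN4, CNN1, CNN3, TAGLN and TAGLN2 passed under none of the 15.

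**Figure D5:**
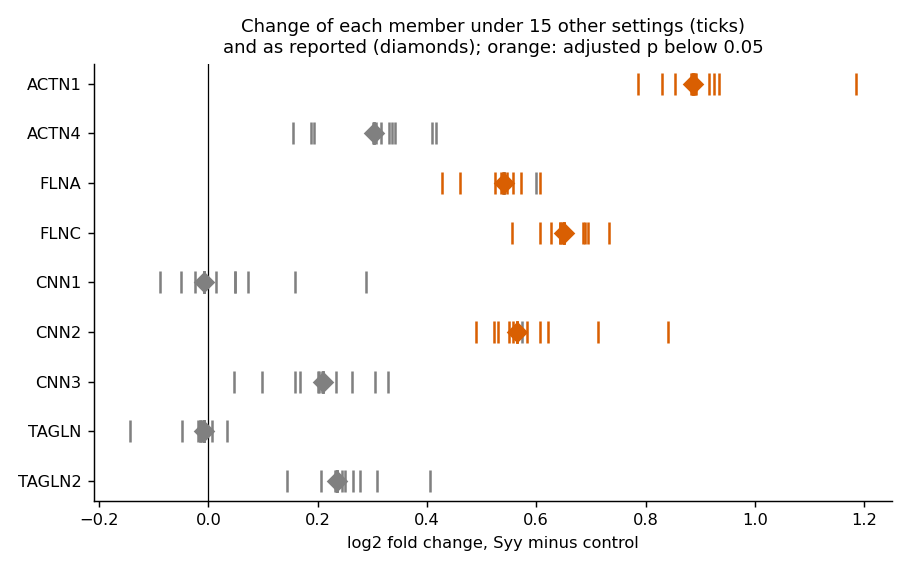
Log2 fold change of each member as reported (diamonds) and under the 15 other settings (ticks), with orange where the adjusted p was below 0.05. ACTN1 and FLNC are orange throughout, and only CNN1 and TAGLN have ticks on both sides of 0.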

How the data were processed

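RNA from LX2 cells (3 Syy, 3 control samples, grouped by sample title) was amplified, labelled with Cy5 and hybridized to one-channel arrays, per the labels' protocols. The deposited values are linear intensities for 31741 probes, from -10.6 to 71046. Array medians ran from 18.4 to 27.3. On each array every value is a whole multiple of 1 step, within 0.02 of a step; the steps run from 0.920 to 1.08, which would be the case for whole-number signals multiplied by a factor per array. The background method and scaling are not given in the sources. Precision is limited by the number of arrays. Values were used as log2(intensity + 16) after quantile normalization.

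Probes were named from the platform annotation: 24740 had 1 symbol, 977 several and 6024 none. Syy was set against control with limma 3.58.1 in R 4.3.3 (two-sided, no covariate, Benjamini-Hochberg over 18365 genes); probes were tested likewise. The fit was tested on simulated data with known changes. Promoter sequences came from RefSeq.

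The named genes are all members with their probes; all family relatives and the SRF list; and, per other list, up to 3 called genes with the largest rise and 3 with the largest fall. Members and lists were chosen with earlier results of these data known. Same-numbered samples did not deviate together (correlations of -0.08, -0.08 and -0.03), so replicate numbers were not treated as pairs. Alternatives were other scalings, pseudocounts of 32 and 64, a filter on dim probes, the mean over probes, a replicate block, an intensity trend and leaving out arrays.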

Additional observations from a re-analysis of the deposited data

How the results depend on the processing

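The 135 tests of single members under other settings include those of ACTN4, CNN1, CNN3, TAGLN and TAGLN2, which had no call to lose. In 132 the outcome, called or not called, was the same, and in 3 a call was lost. FLNA lost it with the replicate block (0.54, adjusted p = 0.0549; from 0.00662 to 0.0616 among its alternatives). FLNA and CNN2 lost it without Syy replicate 3 and control replicate 2, which leaves 2 arrays a group, so that 2 members were called higher. Leaving out a single array kept 4 members higher and none lower in each of 6 fits. The number of pairs whose groups did not overlap was 3, and 3 to 5 without 1 array.

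Counts over all genes moved more. Higher and lower genes numbered 2017 and 2104 as reported, 3155 and 738 in the values as deposited, 1051 and 852 with the replicate block, and 566 and 537 without Syy replicate 3 and control replicate 2. Leaving out 1 array gave 1197 to 1787 higher and 1088 to 1965 lower. Of the actin-binding list genes 16 were higher and 8 lower as reported. The block gave 10 and 4, median centring 5 lower, the values as deposited 2 lower, and leaving out both arrays 6 and 5; without 1 array 11 to 13 were higher and 3 to 8 lower. For 26 other genes named in the text, the outcome, called or not called, was the same in 302 of 387 such fits. A call was lost in 83 and made in 2 (SRF), and none was reversed. ACTN2, ACTN3, SRF, MKL1 and MYOCD had no call to lose. Leaving out arrays also lowers power; otherwise the cause was not tested. The sample numbers share only a number, and the count of members called with the block was 3.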
